A study of Mus musculus with 6 samples.

Results

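The genes described here are 9 genes of red blood cells, read on arrays of embryonic mouse forebrain. They are the globin genes Hba-x, Hbb-bh1, Hba-a1 and Hbb-b2, the haem synthesis gene Alas2, the membrane protein genes Slc4a1 and Rhag, and the nuclear factor genes Klf1 and Hemgn. They were chosen by name after several of them had been seen to read high on the arrays numbered 3 of both genotypes. The values that chose them are thus the differences of those arrays from the others of their group, which are described below without a test. Every probe set that the platform annotation gives to 1 of these genes alone was taken, which came to 14 of 45037 probe sets and 9 of 18193 genes. Each gene was represented by its brightest probe set unless another is named.

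The tissue was dorsal telencephalon, the part of the forebrain that forms the cerebral cortex, dissected at E14.5, an embryonic stage when the cortex is producing neurons. The 3 cKO samples carried a conditional knockout of the histone methyltransferase ESET, encoded by Setdb1, made with Emx2Cre. Emx2 is a gene of dorsal forebrain progenitors. The 3 WT samples are labelled wild type, and no source used here says whether they carried Cre. All 6 samples are labelled male and of C57BL\6 background, with 1 array each. The labels do not say whether the RNA of a sample came from 1 embryo or from several. The design addresses which transcripts differ between these genotypes.

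Red cells of the embryo arise in waves. Primitive erythroblasts come from the yolk sac, circulate with their nuclei and use the embryonic globins, which are the zeta chain (Hba-x), the beta-like chain beta H1 (Hbb-bh1) and epsilon y (Hbb-y). Definitive red cells come later from the fetal liver and use the adult alpha and beta chains. At mid-gestation both kinds circulate through the vessels of the brain, so a dissected forebrain holds some blood. In bulk RNA, fewer cells of a type and less RNA per cell cannot be told apart.

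Median intensities of the arrays lay between 91.1 and 119, and the lowest correlation of log2 values between any 2 arrays was 0.96. Setdb1 read 704, 696 and 500 on cKO 1, 2 and 3, against 1162, 1185 and 1033 on WT 1, 2 and 3. The groups did not overlap, but the adjusted p of Setdb1 was not below 0.05. Its log2 fold change, cKO minus WT, was -0.83 (limma adjusted p = 0.137), and -0.73 without the arrays numbered 3 (limma adjusted p = 0.244). The arrays numbered 3 stood apart from their labels in both groups. Xist, the RNA that silences an X chromosome in females, read 8811 on cKO 3 and 17294 on WT 3, with the other 4 arrays between 34.1 and 59.0. The Y-linked gene Eif2s3y read 961 on cKO 3 and 22.2 on WT 3, and at least 1927 on the others. Kdm5d, also Y-linked, read 663 on cKO 3 and 10.2 on WT 3, and at least 909 on the others, so cKO 3 held both Xist and Y-linked RNA. The counts and fold changes of the 9 genes between genotypes are therefore given with and without these arrays.

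In the RefSeq gene table of assembly GRCm38.p6, Hba-x (chr11:32276600-32278116) and Hba-a1 (chr11:32283672-32284486) lie in the alpha globin cluster. Hbb-bh1 (chr7:103841638-103843162) lies in the beta globin cluster. Hbb-b2 is listed outside the main sequence of that cluster, which holds Hbb-bs and Hbb-bt in this C57BL/6J assembly. Which beta globin transcript the Hbb-b2 probe sets read in these embryos was not tested. Alas2 lies on chromosome X, Slc4a1 on chromosome 11, Klf1 on chromosome 8, Hemgn on chromosome 4 and Rhag on chromosome 17.

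Promoter windows were available for 6 of the 9 genes, as 300 bases of RefSeq sequence in build GRCm38.p6 that run from 250 bases before the gene start to 50 after it. Shown are the 250 bases before the start for Hba-x and Alas2, which read far higher on both arrays numbered 3, and for Klf1, which differed less there. Capitals mark 2 kinds of motif on either strand. One is the GATA motif, which is GATA with A or T before it and A or G after it. The other is the CACCC-type motif CCNCNCCC, to which factors of the Klf family bind. All 3 windows are on the plus strand, at chr11:32276350-32276599, chrX:150547167-150547416 and chr8:84901732-84901981 in the order below.
Hba-x: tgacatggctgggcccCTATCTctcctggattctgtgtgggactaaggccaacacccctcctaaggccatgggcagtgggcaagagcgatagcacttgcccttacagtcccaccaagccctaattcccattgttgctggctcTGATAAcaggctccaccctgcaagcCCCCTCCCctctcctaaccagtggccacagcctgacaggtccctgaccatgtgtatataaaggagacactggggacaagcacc
Alas2: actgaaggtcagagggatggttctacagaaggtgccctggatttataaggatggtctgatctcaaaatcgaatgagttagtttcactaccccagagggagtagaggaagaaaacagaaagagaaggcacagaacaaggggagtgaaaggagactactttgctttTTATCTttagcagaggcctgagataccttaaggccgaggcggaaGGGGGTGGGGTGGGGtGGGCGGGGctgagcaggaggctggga
Klf1: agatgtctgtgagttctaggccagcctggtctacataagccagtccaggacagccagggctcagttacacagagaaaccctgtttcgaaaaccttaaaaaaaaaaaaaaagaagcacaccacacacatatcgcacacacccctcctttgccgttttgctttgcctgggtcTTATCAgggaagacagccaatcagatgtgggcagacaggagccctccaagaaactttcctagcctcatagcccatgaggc

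A GATA motif was found in the windows of all 6 genes (Hba-x, Hba-a1, Alas2, Klf1, Hemgn and Rhag), where 29.8% of 32841 windows in the table hold one. The CACCC-type motif was found in the windows of 3 of the 6 (Hba-x, Alas2 and Hemgn), where 49.5% of all windows hold it. In the Hemgn window its matches all read GGGGGGGG, beginning at positions -98, -97, -96 and -95, and overlap in a run of G. In the Alas2 window, 4 matches of this motif begin at positions -42, -40, -35 and -26 relative to the start, and the first 3 overlap. The TATA box letters TATAAA were found in the windows of 3 of the 6 (Hba-x, Alas2 and Hemgn), where 13.6% of all windows hold them. They begin at position -28 in the Hba-x window, at -80 in the Hemgn window and, on the minus strand, at -209 in the Alas2 window. The letters were searched on both strands, and a match describes the sequence only. Windows with a motif included both genes that read far higher on the arrays numbered 3 and genes that did not.

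Among the embryonic globins, Hba-x read 19913 on cKO 3, against 513 and 270 on cKO 1 and 2. It read 20068 on WT 3, against 318 and 321 on WT 1 and 2. Array 3 was thus 50.9 times the mean of the other arrays in cKO and 62.9 times in WT, and the arrays numbered 3 of both genotypes read nearly alike.

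Hbb-bh1 read 1788 on cKO 3, against 50.4 and 56.6 on cKO 1 and 2, and 1756 on WT 3, against 52.1 and 93.2 on WT 1 and 2. Both other probe sets of the gene showed the same split. The first of them read 2129 on cKO 3 and 2187 on WT 3, with all other readings between 46.4 and 59.0. The last read 2351 on cKO 3 and 1858 on WT 3, with all other readings between 16.2 and 32.2. On none of the 3 probe sets did an array numbered 1 or 2 come near an array numbered 3.

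Of the adult globins, Hba-a1 has only 1 probe set of its own, and it was dim everywhere. It read 48.5 on cKO 3, against 40.4 and 15.1 on cKO 1 and 2, and 22.4 on WT 3, against 3.23 and 3.55 on WT 1 and 2. Within each genotype array 3 was the highest, but cKO 3 lay close to cKO 1. The 2 probe sets of Hbb-b2 parted. The one brighter on average over the 6 arrays has a name ending in _x_at, which marks probes that may also bind related transcripts. It was the brighter of the pair on the arrays numbered 3 only, and the dimmer on all others. This probe set read 2081 on cKO 3, against 17.2 and 73.3 on cKO 1 and 2. It read 1115 on WT 3, against 64.7 and 86.3 on WT 1 and 2. The other one read 67.1 on cKO 3, against 187 and 204 on cKO 1 and 2, and 132 on WT 3, against 152 and 233 on WT 1 and 2. This second probe set was lowest on array 3 in both groups, opposite to the first.

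**Figure D1:**
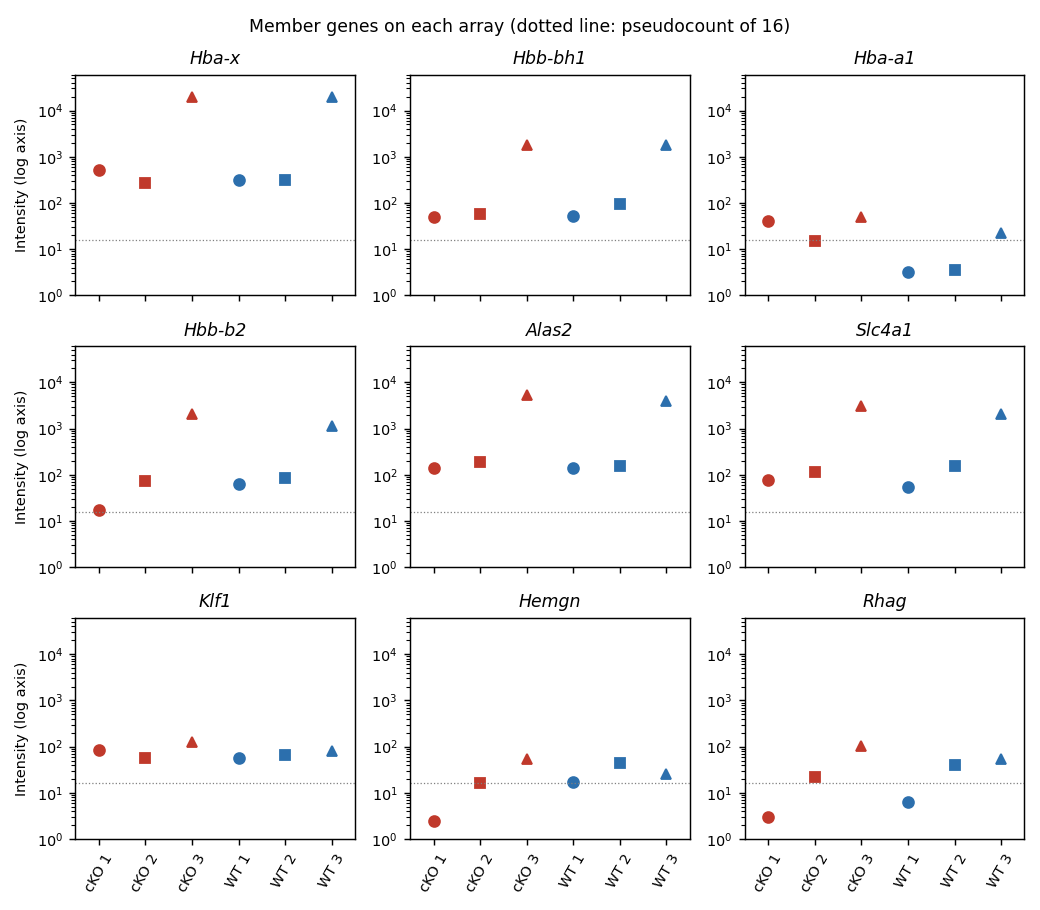
Intensity of each of the 9 genes (brightest probe set, log axis) on the 3 cKO arrays (red, left) and the 3 WT arrays (blue, right), with circles, squares and triangles for the arrays numbered 1, 2 and 3. The triangles of Hba-x, Hbb-bh1, Hbb-b2, Alas2 and Slc4a1 stand far above the other arrays in both groups, while those of Hba-a1, Klf1, Hemgn and Rhag do not.

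Alas2 encodes the red cell form of the enzyme that starts haem synthesis. It read 5385 on cKO 3, against 140 and 187 on cKO 1 and 2, and 4022 on WT 3, against 140 and 152 on WT 1 and 2. Slc4a1 encodes band 3, the anion exchanger of the red cell membrane. It read 3146 on cKO 3, against 78.6 and 116 on cKO 1 and 2, and 2111 on WT 3, against 54.3 and 152 on WT 1 and 2. On array 3 both genes read between 20.4 and 32.9 times the mean of the others of the group, and both read higher on cKO 3 than on WT 3. A second probe set of Slc4a1 gave 1947 on cKO 3 and 1508 on WT 3, with the other arrays between 74.5 and 136. Its remaining probe set read at most 18.3 on any array.

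Rhag encodes a membrane glycoprotein of the Rhesus complex. It read 105 on cKO 3, against 2.99 and 22.0 on cKO 1 and 2, and 53.8 on WT 3, against 6.49 and 39.5 on WT 1 and 2. Array 3 was the highest of each group, but WT 3 lay close to WT 2. Klf1 encodes the transcription factor that turns on adult beta globin and many other red cell genes. It read 128 on cKO 3, against 82.6 and 57.6 on cKO 1 and 2, and 81.1 on WT 3, against 57.6 and 67.5 on WT 1 and 2. All readings of Klf1 lay within a narrow span, and WT 3 did not exceed cKO 1. Hemgn encodes hemogen, a nuclear protein of blood cell precursors. It read 53.5 on cKO 3, against 2.43 and 16.1 on cKO 1 and 2, and 26.1 on WT 3, against 16.9 and 44.7 on WT 1 and 2. WT 3 was the middle array of its group for this gene.

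Differences below are on the log2(intensity + 16) scale, array 3 minus the mean of arrays 1 and 2 of its group. The differences of cKO 3 and of WT 3 were 5.68 and 5.90 for Hba-x, 4.70 and 4.36 for Hbb-bh1, 4.92 and 4.64 for Alas2, 4.83 and 4.29 for Slc4a1, and 5.27 and 3.64 for Hbb-b2. They were smaller for Rhag (2.18 and 0.98), Hba-a1 (0.62 and 0.98), Klf1 (0.76 and 0.31) and Hemgn (1.52 and -0.09). Of the 9 genes, 7 were at least 2-fold higher on cKO 3, as were 4.14% of all genes, and 5 on WT 3, as were 3.18%. The same 5 were so in both groups, as were 0.89% of all genes. These shares are given beside the count for scale only, since this contrast chose the genes. Hbb-b2 is counted through its _x_at probe set, while its other probe set differed by -1.35 on cKO 3 and -0.47 on WT 3. The median over the 9 genes was 4.70 for cKO 3 and 3.64 for WT 3, against 0.01 and -0.0047 over all genes. Without probe sets ending in _x_at or _s_at, the medians were 2.18 for cKO 3 and 0.98 for WT 3. In that setting Hbb-b2 is read by its other probe set and the middle gene of the 9 becomes Rhag on cKO 3 and Hba-a1 on WT 3.

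**Figure D2:**
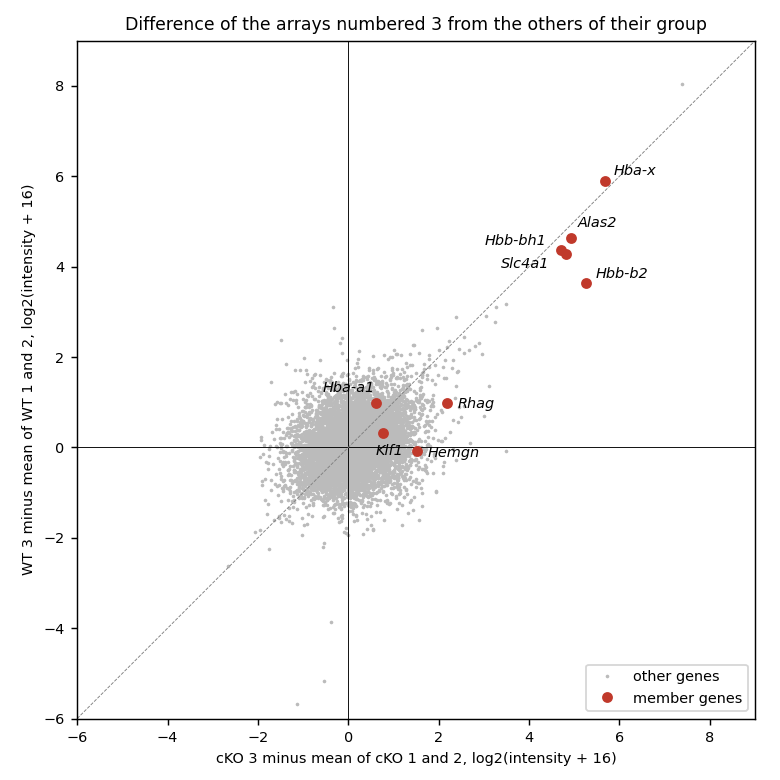
Difference of the arrays numbered 3 from the mean of arrays 1 and 2 in cKO (x axis) and WT (y axis), on the log2(intensity + 16) scale, for the 9 genes (red, named) and all other genes (grey). Hba-x, Hbb-bh1, Alas2, Slc4a1 and Hbb-b2 lie in the upper right corner, Hbb-b2 to the right of the dashed line of equal difference, and the grey point beyond them is Xist.

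Set side by side, the arrays numbered 3 were not the same for every gene. The log2 difference of cKO 3 minus WT 3 was -0.01 for Hba-x and 0.03 for the brightest probe set of Hbb-bh1, the embryonic globins. Another Hbb-bh1 probe set read 2129 on cKO 3 and 2187 on WT 3, and the last read 2351 and 1858. The log2 difference was 0.42 for Alas2, 0.57 for Slc4a1 and 0.89 for Hbb-b2. It was 0.57 for Klf1, 0.72 for Hemgn, 0.75 for Hba-a1 and 0.80 for Rhag, which were dim. In all, 8 of the 9 genes read higher on cKO 3, as did 52.1% of all genes. These are single arrays, so the difference has no replicate check.

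The arrays numbered 1 and 2 also differed among themselves. All 9 genes read higher on WT 2 than on WT 1, as did 47.7% of all genes, and the log2 difference was 1.26 for Slc4a1, 1.30 for Rhag and 0.01 for Hba-x. In the cKO group 6 of the 9 read higher on cKO 2 than on cKO 1, as did 44.9% of all genes. There Hba-x went the other way, with cKO 2 lower than cKO 1 by 0.89 on the log2 scale. The genes share the RNA of a sample and are not independent of one another.

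Other globin probe sets stand outside the 9 genes, because the annotation gives them to several genes or to Hbb-y or Hba-a2. The brightest Hbb-y probe set read 43470 on cKO 3, against 16248 and 10501 on cKO 1 and 2, and 41223 on WT 3, against 11863 and 15626 on WT 1 and 2. A Hbb-y probe set gave the highest reading of any probe set on cKO 3 and on WT 3, and on none of the other 4 arrays. The dimmest Hbb-y probe set had the larger log2 difference, of 2.96 on cKO 3 and 2.81 on WT 3, against 1.73 and 1.60 for the brightest.

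Of 3 probe sets given to Hba-a1 and Hba-a2 together, 1 read 27710 on cKO 3, against 4225 and 6230 on cKO 1 and 2, and 25137 on WT 3, against 4081 and 6047 on WT 1 and 2. The second read between 24394 and 26851 on the cKO arrays and between 23668 and 29653 on the WT arrays, with array 3 between the others of its group in both. The third read 20831 on cKO 3, against 27828 and 24810 on cKO 1 and 2, and 24649 on WT 3, against 24336 and 31208 on WT 1 and 2. The probe set shared by Hbb-bt, Hbb-bs, Hbb-b2 and Hbb-b1 read between 18776 and 22624 on cKO arrays and between 18396 and 25710 on WT arrays. Of these shared alpha globin probe sets, 1 was thus higher on the arrays numbered 3, and the other two were bright on all 6 arrays with log2 differences between -0.33 and 0.01. The probe set of Hba-a2 alone was dim, at 114 on cKO 3, against 159 and 155 on cKO 1 and 2, and 180 on WT 3, against 234 and 172 on WT 1 and 2. The highest intensity of any array was 50154. Whether the brightest globin readings lie where the scanner or the probes no longer follow the amount of RNA was not tested.

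**Figure D3:**
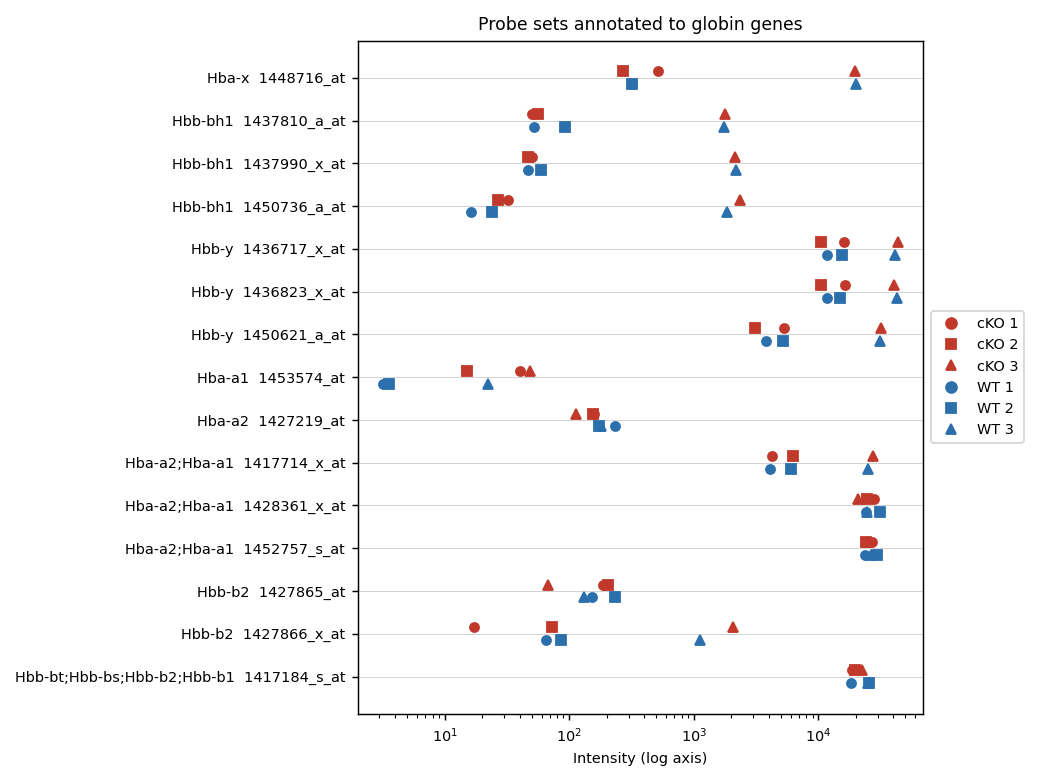
Intensity (log axis) of every probe set annotated to globin genes, with cKO arrays in red above WT arrays in blue, and triangles for the arrays numbered 3. Triangles stand at the right for probe sets of Hba-x, Hbb-bh1 and Hbb-y, the brighter Hbb-b2 probe set and 1 shared by Hba-a2 and Hba-a1. The other 3 shared adult globin probe sets read 18396 or more on every array.

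In cKO against WT, none of the 9 genes changed past the threshold. With limma and Benjamini-Hochberg adjustment over all 18193 genes, 0 of the 9 had an adjusted p below 0.05, where 0.627% of all genes did, 0.385% upward and 0.242% downward. At an unadjusted p below 0.05 there was 1 of the 9, where 9.56% of all genes were so. In the fit of all 45037 probe sets, 0 of the 14 probe sets of these genes passed, where 0.275% of all probe sets did, and 0 of the 14 passed without the arrays numbered 3, where 0.0178% did. For none of the 9 did the cKO arrays lie apart from the WT arrays without overlap, as they did for 15.5% of all genes. Without the arrays numbered 3 the groups did not overlap for Hba-a1 and Hemgn, 2 of the 9, nor for 39.4% of all genes. The median log2 fold change, cKO minus WT, was 0.14 over the 9 genes and 0.01 over all genes, with 6 of the 9 and 51.2% of all genes higher in cKO. Without the arrays numbered 3 the median was 0.036 over the 9 genes and 0.0024 over all genes, with 5 of the 9 and 50.4% of all genes higher in cKO.

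The spread in this comparison was wide with the arrays numbered 3 included. Hba-x averaged 6899 ± 11271 in cKO and 6902 ± 11402 in WT (SD, n = 3 each), with a log2 fold change of 0.14 (limma 95% confidence interval -5.09 to 5.37, adjusted p = 0.997). Alas2 was at 0.23 (-4.08 to 4.54), Slc4a1 at 0.21 (-3.96 to 4.39), Hbb-bh1 at -0.20 (-4.30 to 3.90) and Hbb-b2 at -0.20 (-4.35 to 3.96). With intervals of this width, even large differences between genotypes were not detectable for these 5 genes. Intervals were narrower for Klf1, at 0.27 (-0.36 to 0.90), for Hemgn, at -0.35 (-1.54 to 0.85), and for Rhag, at 0.0014 (-1.78 to 1.79).

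The samples numbered 1 and 2 gave a closer comparison. Without the arrays numbered 3, Hba-x was at 0.21 (95% confidence interval -0.70 to 1.12), Alas2 at 0.14 (-0.38 to 0.65), Hbb-bh1 at -0.31 (-1.06 to 0.43) and Slc4a1 at 0.04 (-1.28 to 1.35). Hbb-b2 was at -0.74 (-2.17 to 0.69), Rhag at -0.40 (-1.98 to 1.19), Hemgn at -0.88 (-2.06 to 0.30) and Klf1 at 0.12 (-0.44 to 0.68). The probe set of each gene had been chosen over all 6 arrays, those numbered 3 included. On the arrays numbered 1 and 2 the other Hbb-b2 probe set read higher. It was at 0.05 in the fit of all probe sets without the arrays numbered 3, and the second Slc4a1 probe set was at -0.02 there. In the gene fit without the arrays numbered 3, 0 of the 9 passed with limma, where 0.044% of all genes did. There 1 had an unadjusted p below 0.05, where 9.78% of all genes did. The median SE of the 9 genes was 0.33, against 1.70 with all arrays. With the arrays numbered 3 kept as a block, 0 of the 9 passed, where 0.605% of all genes did, and 1 had an unadjusted p below 0.05, where 12.6% of all genes did. Hba-x then had an interval of -0.50 to 0.78 and Alas2 one of -0.15 to 0.61. A p that misses the threshold does not show that the genotypes were alike, and the intervals give the sizes that remain possible.

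The gene with an unadjusted p below 0.05 in each of these fits was Hba-a1, on its dim probe set. Its log2 fold change was 0.99 (95% confidence interval 0.08 to 1.91, unadjusted p = 0.0378, adjusted p = 0.464 with limma). It was 1.11 without the arrays numbered 3 (adjusted p = 0.411). Its size depends on the pseudocount, with 2.07 for a pseudocount of 1 (adjusted p = 0.546) and 0.41 for one of 64 (adjusted p = 0.454). The groups overlapped, with cKO 2 at 15.1 below WT 3 at 22.4. The shared adult alpha globin probe sets were at 0.08, -0.07 and -0.13 in the same contrast, in the order above, on the fit of all probe sets, with adjusted p of at least 0.96 there. They were at 0.05, -0.05 and -0.07 without the arrays numbered 3, with adjusted p of at least 0.97.

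**Figure D4:**
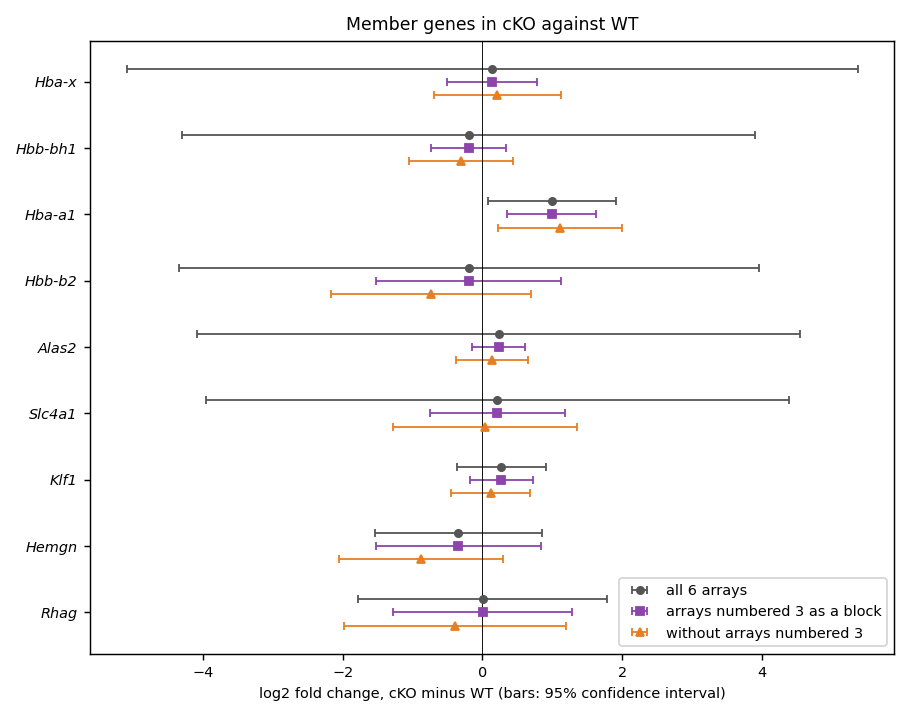
Log2 fold change of the 9 genes, cKO minus WT, with 95% confidence intervals, from all 6 arrays (grey), with the arrays numbered 3 as a block (purple) and without those arrays (orange). Intervals of all genes other than Hba-a1 span 0, and those of Hba-x, Hbb-bh1, Hbb-b2, Alas2 and Slc4a1 shrink once the arrays numbered 3 are blocked or left out.

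Other red cell genes were read through 6 lists written for globins, haem synthesis, iron uptake, the red cell membrane, erythroid transcription factors and red cell metabolism. Outside the 9 genes the lists held 69 measured genes, of which 13 were at least 2-fold higher on array 3 in both groups, where 0.89% of all genes were. In haem synthesis and mitochondrial iron import these were 2 of 12. Slc25a37, the mitochondrial iron importer mitoferrin, read 5234 on cKO 3, against 401 and 512 on cKO 1 and 2, and 3775 on WT 3, against 340 and 483 on WT 1 and 2. Fech, which inserts iron in the last step of haem synthesis, had differences of 2.88 on cKO 3 and 2.30 on WT 3. The 5 measured enzymes between the first and last steps differed less. Cpox was at 0.74 and 0.48, Urod at 0.26 and 0.13, Alad at -0.26 and -0.07, Ppox at -0.26 and -0.16, and Uros at -0.36 and -0.12. The median of the whole list, Alas2 included, was 0.26 on cKO 3 and 0.17 on WT 3.

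Among membrane and skeleton genes, 4 of 16 were at least 2-fold higher on array 3 in both groups. The translocator protein gene Tspo2 differed by 2.46 on cKO 3 and 2.17 on WT 3, the blood group gene Kel by 2.01 and 2.15, and Epb42, for protein 4.2, by 1.68 and 1.85. The last was Rhd, of the Rhesus complex, at 1.65 and 1.19, named after its values were seen. Among genes of red cell metabolism and maturation, 4 of 17 were. These were Blvrb, a biliverdin reductase, at 3.27 and 3.11, the carbonic anhydrase gene Car2 at 3.24 and 2.78, Trim10 at 2.95 and 2.07, and Bpgm, which makes the oxygen affinity regulator bisphosphoglycerate, at 1.99 and 1.61.

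Of the erythroid transcription factors other than Klf1 and Hemgn, 2 of 14 were at least 2-fold higher on array 3 in both groups. They were Tal1, at 1.78 on both arrays, and Nfe2, at 2.30 on cKO 3 and 1.76 on WT 3. Gata1, the factor that binds GATA motifs in red cell genes, was at 1.13 and 0.55. In the list of iron uptake and the erythropoietin receptor 0 of 8 were, with medians of -0.11 on cKO 3 and -0.09 on WT 3. The highest of them were the stem cell factor receptor gene Kit, at 0.32 and 0.40, and the erythropoietin receptor gene Epor, at 0.13 and 0.39. Of the 8, 4 were lower on array 3 in both groups, among them the transferrin receptor gene Tfrc, at -0.31 and -0.32, named after its values were seen.

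Between genotypes, 1 of the 78 measured genes of these 6 lists passed the threshold, and it fell. Of all genes, 0.627% passed and 0.242% fell. Icam4, an adhesion molecule of the red cell surface, read 4.65, 6.09 and 6.37 on cKO 1, 2 and 3, against 45.7, 35.5 and 48.5 on WT 1, 2 and 3, and the groups did not overlap. Its log2 fold change was -1.44 (SE 0.14, limma adjusted p = 0.013), and -1.40 without the arrays numbered 3, where it did not pass (adjusted p = 0.159). With 1 array left out the adjusted p ran from 0.0298 to 0.0902 and passed only without WT 2. All cKO readings lie under the pseudocount of 16, and the log2 fold change was -2.72 with a pseudocount of 1 and -0.62 with one of 64. Its reading did not follow the arrays numbered 3, with differences of 0.07 on cKO 3 and 0.19 on WT 3.

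The genes most like the 9 were ranked by the smaller of the differences of cKO 3 and WT 3. After leaving out the 9 genes and names of clones or predicted genes, the first 10 were Xist, Tent5c, Slc25a37, Blvrb, Ell2, Car2, Ube2l6, Fech, Ncf4 and Ankrd52. Tent5c, a poly(A) polymerase gene, read 3589 on cKO 3, against 93.2 and 133 on cKO 1 and 2, and 2410 on WT 3, against 91.4 and 143 on WT 1 and 2. Pearson's r of these 10 genes with the mean log2 profile of the 9 genes over 6 arrays lay between 0.91 for Ncf4 and 1.00 for Tent5c. The 6 points share the split between the arrays numbered 3 and the rest, so r is given as a description. Xist, with an r of 0.97, differed by 7.39 on cKO 3 and 8.03 on WT 3.

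Markers of other blood and tissue cells moved with the arrays numbered 3 to differing degrees, and their part in the differences above was not tested. Of 11 platelet and megakaryocyte genes, 3 were at least 2-fold higher in both groups. Their summed intensity was 1764 on cKO 3, against 1024 and 811 on cKO 1 and 2, and 1709 on WT 3, against 916 and 912 on WT 1 and 2. Pf4, platelet factor 4, read 542 on cKO 3, against 94.7 and 85.6 on cKO 1 and 2, and 451 on WT 3, against 130 and 133 on WT 1 and 2. Ppbp and Gp9 were the other two.

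Of 15 macrophage and microglia genes 0 were at least 2-fold higher in both groups. Their sum was 2738 on cKO 3, against 2542 and 1945 on cKO 1 and 2, and 2595 on WT 3, against 2612 and 2402 on WT 1 and 2. Likewise, 0 of 10 granulocyte genes, 0 of 9 lymphocyte genes and 0 of 8 fetal hepatocyte genes were at least 2-fold higher in both groups. The summed hepatocyte markers read at most 222 on the arrays numbered 3, against up to 498 on WT 2, where Afp and Alb, chosen after their values were seen, read 191 and 135.

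Among vessel genes, 0 of 14 endothelial and 0 of 9 pericyte genes were 2-fold higher in both groups. Median differences on cKO 3 and WT 3 were 0.01 and 0.02 for endothelium, and 0.22 and -0.05 for pericytes. The meninges and mesenchyme list had a median of 1.22 on cKO 3 and 0.06 on WT 3, with 0 of 12 at least 2-fold higher in both. The skeletal muscle list had medians of 1.02 and 0.56, with 2 of 11 at least 2-fold higher in both, Actc1 and Myog. The 12 measured genes of the dorsal telencephalon list, which check the labelled tissue, summed to between 56258 and 64343 on cKO arrays and between 62638 and 66881 on WT arrays, with median differences of 0.19 on cKO 3 and 0.11 on WT 3. The ventral telencephalon list had medians of 0.09 and 0.88, with 0 of 11 at least 2-fold higher in both.

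**Figure D5:**
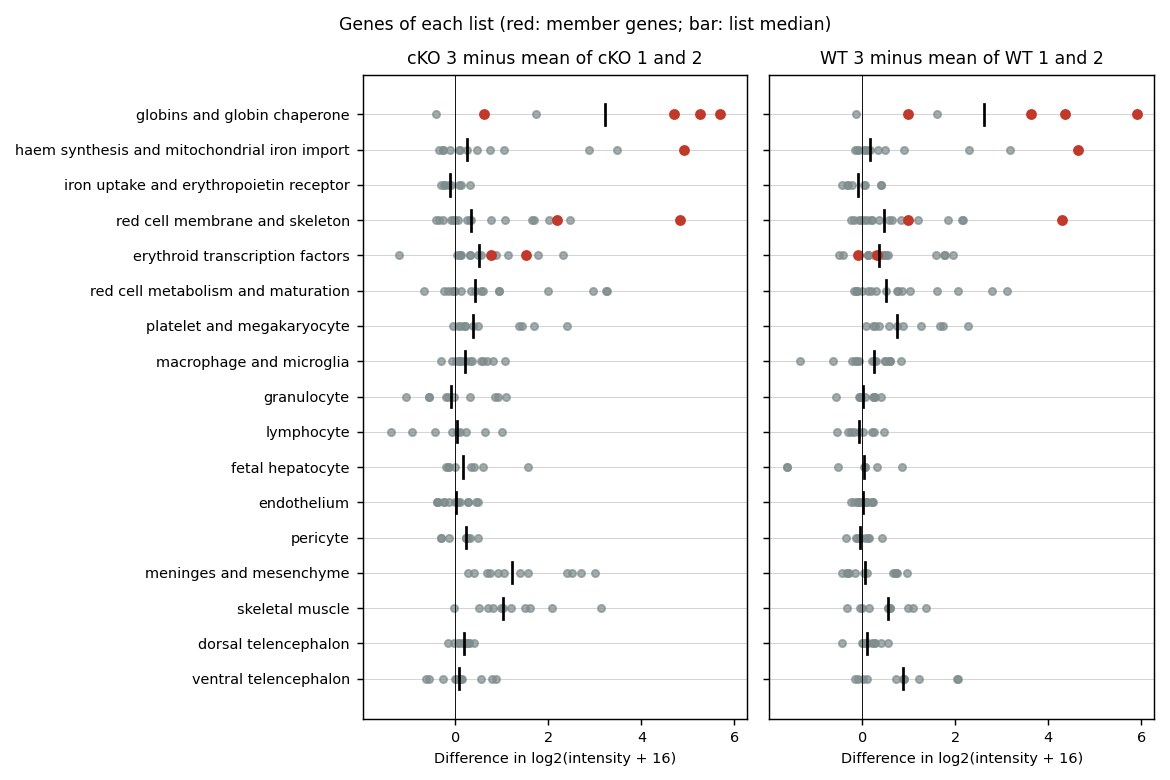
Difference of cKO 3 (left) and of WT 3 (right) from the mean of arrays 1 and 2 of its group, on the log2(intensity + 16) scale, for each measured gene of 17 lists, with the list median as a black bar and the 9 genes in red. Genes at least 2-fold higher in both panels stand in the globin, haem, membrane, transcription factor, metabolism, platelet and muscle lists, while the meninges list has medians of 1.22 on cKO 3 and 0.06 on WT 3.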

How the data were processed

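RNA of 6 samples (250 ng of total RNA each) was labelled with biotin and read on single-colour Affymetrix arrays, per the labels' protocols. The authors deposited 1 linear intensity for each probe set and array, made with the Affymetrix Expression Console per the submitters' processing notes. Its version and summary method were not given in the sources used here. Array means after trimming lay between 497.2 and 497.7, so the arrays had been scaled to a common level. Detection calls are not in the table used.

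Intensities were taken to log2(intensity + 16), which makes differences of dim genes smaller than their ratios. Array medians differed by 0.33 on this scale, below a limit of 0.5 for further scaling. The platform annotation names 1 gene for 34945 probe sets, several for 932 and none for 9160. Each of 18193 genes was read by its brightest probe set, by the mean log2 value over all 6 arrays. A linear model of genotype was fitted across all genes with limma 3.58.1 in R 4.3.3, with Benjamini-Hochberg adjusted p called below 0.05, and tested on simulated data. With 3 arrays a group, their number limits the precision. Nothing says that samples came from separate embryos or litters, so p-values measure the spread between these samples.

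The genes, lists and tests were chosen with earlier results of these data known. Beside the 9 genes with all their probe sets, the text names up to 4 genes of each list and 10 other genes. These have the largest smaller difference of array 3 in cKO and WT. Named outside this rule were Setdb1, the other globin genes, the haem enzymes between the first and last steps, and Icam4. Icam4 was named because it passed the threshold. Further exceptions are marked where they stand. Alternatives were quantile normalization, centring on medians, pseudocounts of 1 and 64, trend and robust settings, leaving out dim genes or _x_at and _s_at probe sets, the replicate number or the arrays numbered 3 as a block, and leaving out arrays.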

Additional observations from a re-analysis of the deposited data

How the results depend on the processing

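In 15 alternative fits, 0 of the 9 genes passed the threshold in cKO against WT (limma adjusted p of at least 0.218), and in the fit without dim genes, which held only Hba-x, Alas2 and Slc4a1, 0 of 3 did. The count over all genes, 114, moved to 58 and 215 with pseudocounts of 1 and 64, 244 with trend and robust settings, 187 without dim genes, 17 with the replicate block and 8 without both arrays numbered 3. It was between 26 and 53 when 1 array was left out, where fewer arrays also lower the power. Same-numbered arrays of the 2 genotypes correlated at 0.07, 0.17 and 0.37 in their deviations from group means, and differently numbered arrays at -0.27 to 0.15. Deviations within a group depend on one another, so these values cannot decide whether the numbers are pairs. The numbers were not taken as pairs, and the replicate block called 0 of the 9. Icam4, whose alternatives were chosen after seeing the data, had an adjusted p of 0.0903 with the replicate block, and did not pass there. Signs of uncalled fold changes turned in 23 of 138 cases. Rhag was at -0.063 with quantile normalization, -0.048 with centring, -0.26 with a pseudocount of 1 and -0.40 without both arrays numbered 3, and Hbb-b2 at 0.022 with a pseudocount of 64. Leaving out 1 array gave ranges of -1.75 to 2.11 for Hba-x, -1.77 to 1.25 for Hbb-bh1, -1.95 to 1.04 for Hbb-b2, -1.41 to 1.78 for Alas2, -1.39 to 1.64 for Slc4a1, 0.78 to 1.32 for Hba-a1, 0.016 to 0.50 for Klf1, -0.85 to 0.11 for Hemgn and -0.72 to 0.61 for Rhag, with both ends for Hba-x, Hbb-bh1, Alas2 and Slc4a1 reached without cKO 3 or WT 3. The median difference of the 9 genes on cKO 3, 4.70, was 4.48 with centring, which puts the median of all genes at -0.21 on cKO 3 and -0.20 on WT 3, 5.03 and 3.98 with pseudocounts of 1 and 64, and 2.18 without _x_at and _s_at probe sets. On WT 3 the median, 3.64, was 3.88, 3.08 and 0.98 with the last 3 of these settings. Against 1 of the other arrays alone it ran from 4.55 to 4.76 on cKO 3 and from 3.47 to 3.81 on WT 3. Signal near background limits Hba-a1, Hemgn and Rhag, which read below 16 on some array.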
